A study of Mus musculus with 22 samples.

Results

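Livers of newborn mice labelled Tcf7l2-/- (KO) were compared with livers of newborn Tcf7l2+/+ mice (WT), using the 8 arrays of the series whose titles give a newborn genotype, 4 KO and 4 WT of 22 arrays in all. All pups were C57BL/6, were given 50 ul of 10% glucose under the skin and were sampled 5 h after birth, so both genotypes had the sugar load. The KO label also reads TCF4KO. Samples 1 to 4 of each genotype are biological replicates per the labels, which give no litters and no tissue restriction for the newborn deletion. One further comparison used 4 LTCF4KO and 4 control livers of adults fasted for 24 h, given tamoxifen at 3 weeks of age. The fasted KO adults carried Tcf7l2loxp/loxp with SA-CreERT2, a Cre that tamoxifen switches on, and the fasted controls carried Tcf7l2loxp/loxp alone. On 2-colour Agilent arrays, each liver in Cy3 was hybridised against a common mouse reference RNA in Cy5. Every level below is the log2 ratio of liver over that reference, and every change is the KO mean minus the WT mean on the log2 scale with its standard error (SE).

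Tcf7l2 encodes TCF4, a DNA-binding partner of beta-catenin that carries Wnt signals into the nucleus. In adult liver, Wnt signals from around the central vein keep a set of genes for glutamine synthesis, ammonia uptake and drug metabolism switched on in the hepatocytes next to that vein, while hepatocytes near the portal vein make urea and glucose. At birth the placental glucose supply ends, and the liver has to start gluconeogenesis, fatty acid oxidation and ketone production within hours, while it still holds blood-forming cells and resident macrophages called Kupffer cells.

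The arrays hold 3 probes of Tcf7l2 (chromosome 19, mm9), which are shown because their position decides what the arrays can say about the deletion. The first probe, at chr19:55982975-55983034 on the plus strand, is printed whole, and of the other probes, at chr19:56006460-56006519 and chr19:56007586-56007645, the first 30 bases are given. No annotation of that build was used, so exons and untranslated parts are not assigned.
Tcf7l2 probe 1: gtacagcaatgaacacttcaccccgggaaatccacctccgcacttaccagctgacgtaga
Tcf7l2 probe 2, first 30 bases: gccgtggctacatgagttaatgtttatgga
Tcf7l2 probe 3, first 30 bases: gatttgtatgtagttttaatgtcacctata
Probe 3 read -1.85, -1.57, -1.58 and -1.63 in KO livers, against -1.28, -0.83, -0.70 and -0.32 in WT livers. All 4 KO livers lay below all 4 WT livers, yet the change of -0.87 ± 0.187 did not pass the threshold of 0.05 (limma adjusted p = 0.0573). In the liver channel alone the change was -0.81, with a limma adjusted p of 0.0158. Probe 1 changed by 0.08, and probe 2 was well above background on 0 arrays. The labels do not say which stretch of the gene was removed, so probes outside it check nothing.

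Across the genome, 250 of 17173 genes tested passed limma with Benjamini-Hochberg adjustment at 0.05, which is 1.46% of them, with 192 higher in KO (1.12%) and 58 lower in KO (0.338%). The rises lay mostly in dim probes. With genes split by liver signal into 4 equal bins, 121 rose and 12 fell in the dimmest bin, and 3 rose and 17 fell in the brightest. A gene is called bright here where its liver channel was well above background on all 8 newborn arrays and its mean liver signal was at or above the median of the genes tested, a log2 signal of 9.81. Among 8494 bright genes, 48 passed (0.565%), of which 13 were higher in KO (0.153%) and 35 lower in KO (0.412%). An unadjusted limma p under 0.05 was found for 2292 of the 17173 genes tested and 780 of the bright genes. The unadjusted counts of gene lists below are to be read beside these shares. The KO and WT ranges did not overlap for any of the 250, as was also true of 9.5% of all genes tested and 5.53% of bright genes. The text below leads with these, except where a list or the size of a change brings in a dimmer gene.

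**Figure D1:**
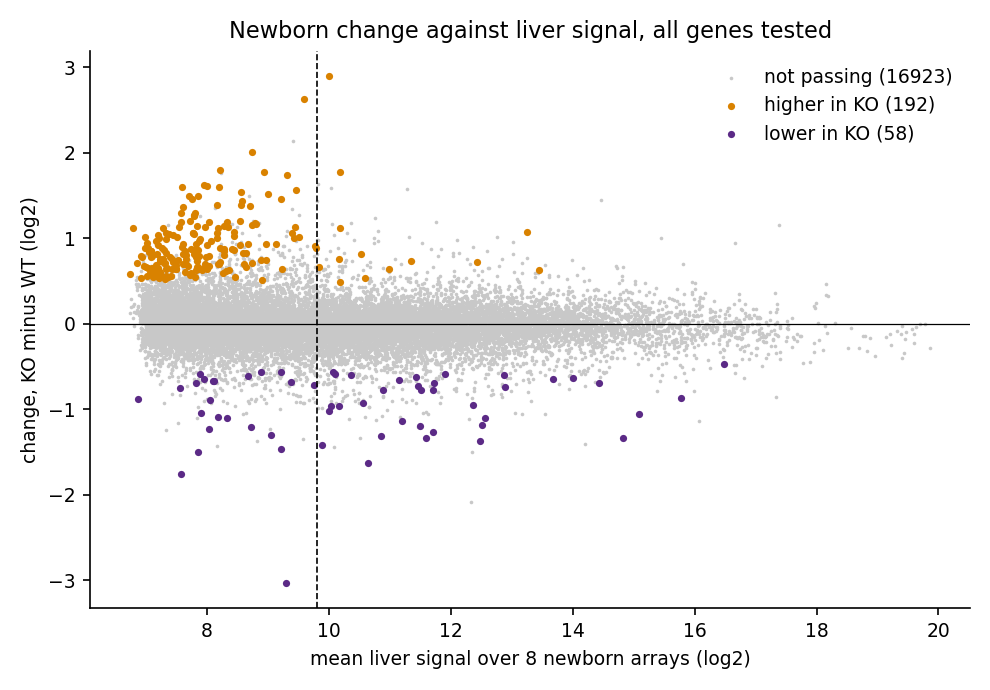
Change (KO minus WT, log2) against mean liver signal over the 8 newborn arrays (log2) for every gene tested; each point is 1 gene, coloured where it passed limma at an adjusted p of 0.05, and the dashed line marks the median signal of 9.81. Most of the 192 genes higher in KO sit left of the line, while the 58 genes lower in KO are spread over the whole signal range.

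Both genotypes were hybridised on a slide of their own, so slide and genotype cannot be told apart. The reference channel holds the same RNA on every array, and it differed between KO and WT arrays in 1865 genes (10.9%), 1509 of them higher on KO arrays. Among bright genes 241 differed (2.84%). For this reason channel changes are given beside the ratios of many genes below, and a ratio given alone says nothing of how its channels moved. Of liver-channel probes, 55.7% to 64.4% were well above background on KO arrays and 50.2% to 59.4% on WT arrays. On the first principal component, which held 45.3% of the variance, KO 1 at -27.3, KO 4 at -33.0 and WT 1 at -36.8 stood apart from the other 5 arrays at 14.7 to 23.7. Without these 3 arrays, which were set apart by their values in these same data, 155 genes passed, 16 of them among the 48 bright genes. Calls lost there included those of Cyp2c37, Hsd3b7, Gulo, Unc93a, F9, Il1r2 and Sdsl, which are described below. Leaving out 1 array at a time gave 65 to 427 genes, with the lowest count without WT 3 and the highest without WT 1. Where local backgrounds that the scanner software marked as outliers were kept as scanned, 0 genes passed by limma and 557 had an unadjusted p under 0.05.

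Of the 48 bright genes, 8 passed with each array left out in turn, 6 of them falls. Those 6 include 5 genes with a symbol, namely Slc17a2, Aqp9, Nceh1, Marco and Spic. Each of these 5 also passed without the 3 arrays that stood apart. The signs of the 48 could not turn there, because the KO and WT ranges of each gene did not overlap. When only genes well above background on all 8 arrays were tested, 12 of the 48 passed, among them the same 5 genes. Bright genes meet this filter by definition, so their ratios stayed the same and only the genes tested with them changed. It is therefore no further support for the 5. The remaining bright calls, among them Cyp2c37, Slco1b2 and Hsd3b7, did not pass among these better-measured genes.

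Slc17a2, a solute carrier of the family of organic anion and phosphate transporters, read 1.69, 1.55, 1.79 and 1.65 in KO livers, against 2.90, 3.27, 3.28 and 2.92 in WT livers. The groups lay more than 1 unit apart, and the spread within KO was small. The change was -1.42 ± 0.126 (limma adjusted p = 0.00185), a 2.68-fold lower ratio in KO. The channels shared it, with a liver-channel change of -0.73 (limma adjusted p = 0.0127) and a reference-channel change of 0.70. Aqp9, the channel through which hepatocytes take up glycerol and which also passes urea, read 3.41, 2.66, 3.04 and 3.18 in KO livers, against 4.25, 4.42, 4.41 and 4.48 in WT livers. The WT values were tight and the highest KO value was still below the lowest WT value. Its change was -1.32 ± 0.157 (limma adjusted p = 0.00621), and other probes of the gene changed by -2.01 and -0.96. In the liver channel alone Aqp9 changed by -1.98 (limma adjusted p = 0.00168). With the ratio that the authors deposited in place of the recomputed one, Aqp9 changed by -0.82 and did not pass (limma adjusted p = 0.139).

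**Figure D2:**
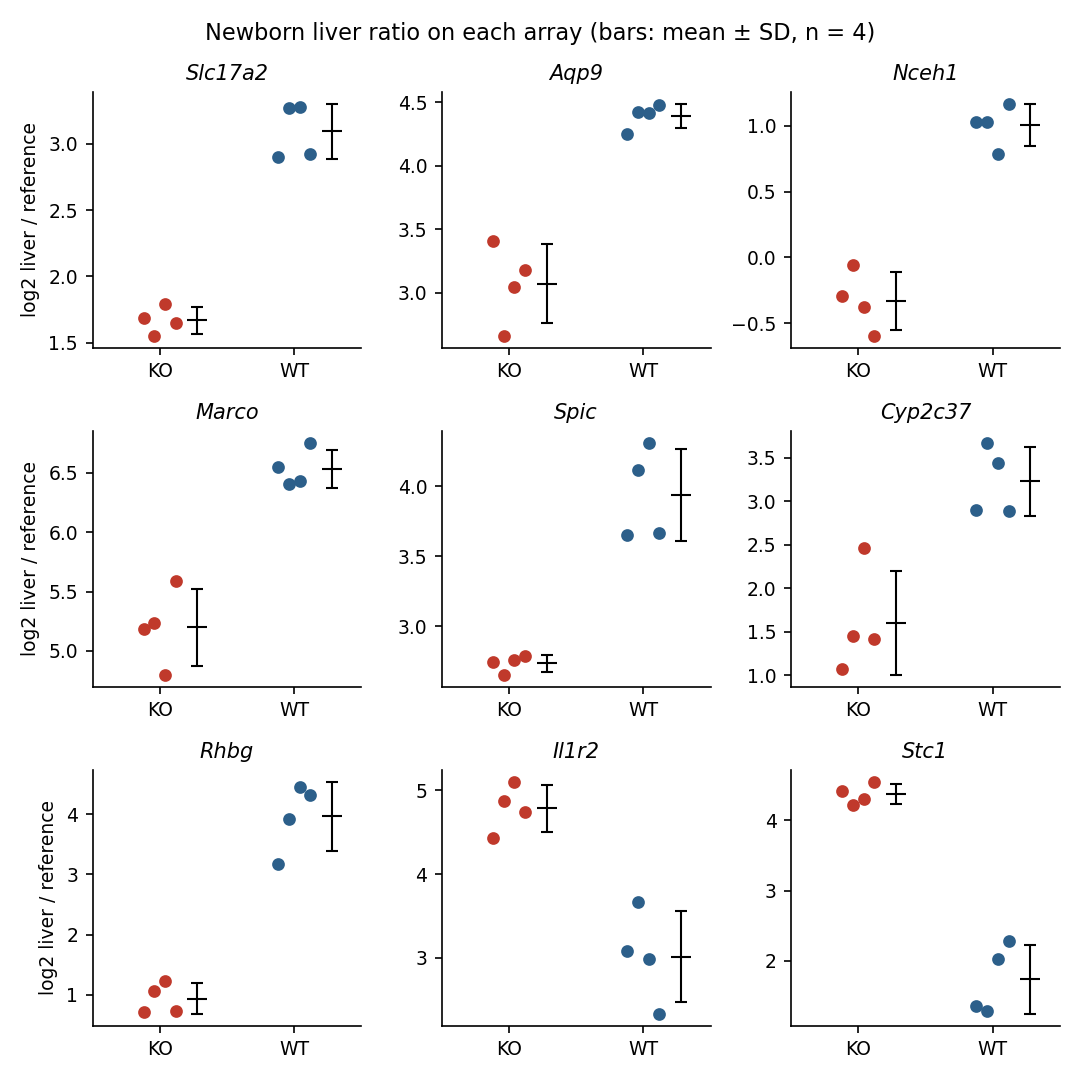
Log2 ratio of liver over reference on each newborn array for 9 genes, KO (red, left) and WT (blue, right), with 4 arrays per group; black bars show mean ± SD. In each panel the KO points and the WT points do not overlap, with Rhbg, Slc17a2, Aqp9, Nceh1, Marco, Spic and Cyp2c37 lower in KO and Il1r2 and Stc1 higher in KO. The vertical axes differ between panels and do not start at 0.

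Further falls concerned hepatocyte enzymes and transporters. Cyp2c37, a cytochrome P450 of pericentral hepatocytes, averaged 1.60 ± 0.60 in KO and 3.23 ± 0.39 in WT (SD, n = 4 each), with KO livers at 1.07, 1.45, 2.46 and 1.41 and WT livers at 2.90, 3.67, 3.44 and 2.89. KO 3 was closest to the WT range. The change was -1.63 ± 0.297 (limma adjusted p = 0.0361), the whole of it in the liver channel, and it no longer passed in 6 of 8 fits that each left out 1 array. A second probe changed by -1.43. The Cyp2c genes are near copies of each other, so a probe may also read relatives.

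Slco1b2, the hepatocyte uptake transporter for bile acids and drugs, averaged 7.23 ± 0.42 in KO and 8.29 ± 0.13 in WT (SD, n = 4 each) and changed by -1.06 ± 0.196 (limma adjusted p = 0.0362). Hsd3b7, an enzyme early in bile acid synthesis, averaged 2.23 ± 0.20 in KO and 2.92 ± 0.12 in WT and changed by -0.69 ± 0.126 (limma adjusted p = 0.0362), with -1.03 in the liver channel. Gulo, which makes the precursor of vitamin C in mice, averaged 4.91 ± 0.22 in KO and 5.55 ± 0.09 in WT and changed by -0.63 ± 0.127 (limma adjusted p = 0.048). None of these ranges overlapped. The Slco1b2 call was lost in 5 of 8 fits that each left out 1 array, that of Hsd3b7 in 6 and that of Gulo in 7 of them.

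Cldn1, a tight junction protein, fell by 1.02 ± 0.179 (limma adjusted p = 0.0319) and Unc93a, a membrane protein of poorly known function, by 1.18 ± 0.226 (limma adjusted p = 0.0397), both with almost no change in the reference channel. A second, dimmer probe of Cldn1 changed by -0.45. Both calls were lost in 7 of 8 fits that each left out 1 array. Slc27a2, which imports very long-chain fatty acids and activates them, fell by 0.87 ± 0.167 (limma adjusted p = 0.0409), and Agmat, which splits agmatine into putrescine and urea, by 0.64 ± 0.119 (limma adjusted p = 0.0362); these 2 were chosen after their values were seen, and their calls were lost in 7 of 8 fits that each left out 1 array. Another probe of Slc27a2 changed by only -0.14, so its probes disagree.

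Nceh1, an ester hydrolase that frees cholesterol from its stored esters, read -0.29, -0.06, -0.38 and -0.60 in KO livers, against 1.03, 1.03, 0.79 and 1.17 in WT livers. All KO values were below 0 and all WT values above it. The change was -1.34 ± 0.139 (limma adjusted p = 0.0036), made of -0.92 in the liver channel, which alone did not pass (limma adjusted p = 0.131), and 0.42 in the reference channel. Acsm3, a mitochondrial medium-chain fatty acid activator, fell by 1.11 ± 0.186 as a ratio (limma adjusted p = 0.0273). Its liver channel changed by -0.11 and its reference channel by 0.99. F9, coagulation factor IX, fell by 0.66 ± 0.124 (limma adjusted p = 0.0387), with -0.02 in the liver channel and 0.64 in the reference channel, and a second probe changed by -0.25. The ratio calls of Acsm3 and F9 thus rest on the reference channel, and they were lost in 5 and 7 of 8 fits that each left out 1 array.

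**Figure D3:**
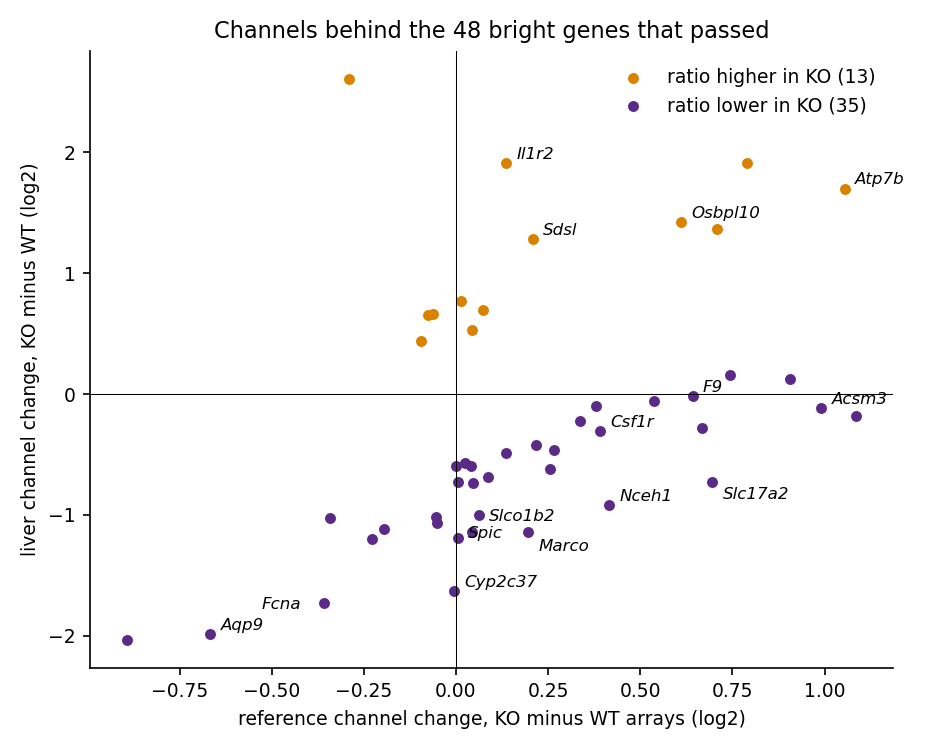
Change of the liver channel against change of the reference channel (KO minus WT, log2, after loess and Aquantile) for the 48 bright genes that passed, 13 with a higher and 35 with a lower ratio in KO. Genes along the vertical zero line, such as Cyp2c37 and Spic, differ in the liver channel; Acsm3 and F9 lie near the horizontal zero line and differ in the reference channel.

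In the liver channel alone, where 8.88% of all genes and 2.02% of bright genes passed, 30 of the 48 did, 18 of the 35 falls and 12 of the 13 rises, and 46 kept their direction. In the reference channel 14 of the 48 passed.

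Several macrophage genes were among the falls. Marco, a scavenger receptor of Kupffer cells, read 5.18, 5.23, 4.80 and 5.59 in KO livers, against 6.55, 6.41, 6.43 and 6.76 in WT livers. The ranges did not overlap, with a change of -1.34 ± 0.167 (limma adjusted p = 0.00817) and a liver-channel change of -1.14. Spic, a transcription factor of iron-recycling macrophages, read 2.75, 2.65, 2.76 and 2.79 in KO livers, against 3.65, 4.12, 4.31 and 3.67 in WT livers. The KO values were nearly alike and all lay below WT. Its change was -1.20 ± 0.159 (limma adjusted p = 0.0101), with -1.19 in the liver channel, and a second probe changed by -1.40.

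Fcna, the plasma lectin ficolin A made by Kupffer cells, averaged 3.10 ± 0.66 in KO and 4.47 ± 0.14 in WT and changed by -1.37 ± 0.28 (limma adjusted p = 0.0498). Csf1r, the receptor that macrophages need to survive, averaged 1.15 ± 0.25 in KO and 1.84 ± 0.14 in WT and changed by -0.70 ± 0.142 (limma adjusted p = 0.0494), with -0.31 in the liver channel and 0.39 in the reference channel. Its other probes changed by -0.78 and -0.12. The Fcna and Csf1r calls were lost in 7 and 8 of 8 fits that each left out 1 array. Adamdec1, a protease of tissue macrophages whose probe was well above background on 2 KO and 4 WT arrays, read 0.60, 0.55, 0.69 and 0.22 in KO livers, against 2.45, 1.69, 2.66 and 2.29 in WT livers. Its change of -1.76 ± 0.204 (limma adjusted p = 0.00535) passed with each array left out, though not without the 3 arrays that stood apart (limma adjusted p = 0.0553). Cd74, the invariant chain that escorts MHC class II proteins, went the other way, at -0.61, -0.34, -0.19 and -0.47 in KO livers, against -1.31, -0.99, -1.34 and -0.88 in WT livers. Its change was 0.73 ± 0.144 (limma adjusted p = 0.0456), and the call was lost with any 1 of the 8 arrays left out.

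Of 19 Kupffer cell markers tested, 3 fell, 1 rose and 15 did not pass, where 1.46% of all genes passed. An unadjusted p under 0.05 was found for 11 of the 19. The changes of 16 were below 0 and their median was -0.48, beside a median of -0.01 and 52.6% below 0 over all genes tested. Markers that did not pass ranged widely. Clec4f, a lectin receptor of mouse Kupffer cells, changed by -0.31 (limma adjusted p = 0.553), Cd5l by -0.68 (limma adjusted p = 0.103; -1.23 in the liver channel), Vsig4 by -0.85 and Timd4 by 0.09. The median level of the list was 3.21 to 3.89 on KO arrays and 3.96 to 4.25 on WT arrays. In whole liver RNA, fewer cells of a type and less RNA per cell cannot be told apart.

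Other cell types were read from their own markers. All 13 hepatocyte markers tested were below 0, by at most 0.47, with a median of -0.12, which was 0.03 with arrays centred on the median in place of loess, and the median level was 6.43 to 6.58 on KO arrays and 6.29 to 6.72 on WT arrays. Alb, the albumin gene, changed by -0.11 (limma adjusted p = 0.821). Of 22 erythroid markers 20 were below 0, with a median of -0.23, of 20 stellate and fibroblast markers 18, with a median of -0.43, and of 19 endothelial markers 15, with a median of -0.26. No member of these 4 lists passed (2, 2, 5 and 7 had an unadjusted p under 0.05), and their part in the falls above was not tested.

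The pericentral genes, the set that Wnt signals maintain in adult liver, contained the largest fall of all. Rhbg, an ammonia transporter of the hepatocytes next to the central vein, read 0.71, 1.06, 1.23 and 0.74 in KO livers, against 3.16, 3.92, 4.45 and 4.31 in WT livers. The highest KO liver lay almost 2 units below the lowest WT liver. The change was -3.03 ± 0.265 (limma adjusted p = 0.00185), 8.16-fold lower in KO, with -2.94 in the liver channel. Its probe was well above background on all 8 arrays but below the median signal, so it is not among the bright genes.

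In all, 22 pericentral genes were tested, and 4 fell (Rhbg, Cyp2c37, Slco1b2 and Gulo), where 0.338% of all genes tested fell. An unadjusted p under 0.05 was found for 14 of the 22. The median change was -0.47 and 19 were below 0, beside a median of -0.01 and 52.6% below 0 over all genes tested. The median level was 1.89 to 2.48 on KO arrays and 2.90 to 3.23 on WT arrays. The best-known members did not pass. Glul, glutamine synthetase, read 4.94, 3.05, 4.09 and 4.49 in KO livers, against 4.43, 4.34, 4.27 and 4.36 in WT livers. KO values lay on both sides of the tight WT values, and the change was -0.21 ± 0.334 (limma adjusted p = 0.878). Oat, ornithine aminotransferase, changed by -0.03 ± 0.104, Lgr5, the R-spondin receptor, by -0.34 ± 0.283 and Cyp2e1, an alcohol-oxidising cytochrome P450, by -0.35 ± 0.166. The Cyp2e1 channels parted from its ratio, with -1.90 in the liver channel (limma adjusted p = 0.00367) and -1.55 in the reference channel. Cyp7a1, the rate-limiting enzyme of bile acid synthesis, had separate ranges with a mean of 6.48 ± 0.64 in KO and 7.53 ± 0.24 in WT (SD, n = 4 each), but the change of -1.05 ± 0.284 did not pass (limma adjusted p = 0.112). Without KO 1, KO 4 and WT 1 it was -1.68 and passed (limma adjusted p = 0.0248), and the list median was -0.75. WT 1 was the low WT array of Cyp7a1 (7.183), so leaving it out raised the WT mean. That pass of Cyp7a1 therefore adds no support. In that same fit Cyp2c37 (limma adjusted p = 0.11) and Gulo (limma adjusted p = 0.0539) no longer passed, while Rhbg and Slco1b2 still did.

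Of 22 periportal genes 1 passed, a rise, where 1.46% of all genes tested passed. The list as a whole did not rise. Of its members 16 were below 0, with a median of -0.18, and 8 had an unadjusted p under 0.05. Sdsl, a serine dehydratase-like enzyme, read 3.03, 2.83, 3.02 and 3.22 in KO livers, against 2.42, 2.13, 1.40 and 1.86 in WT livers. All KO values were higher, with a change of 1.07 ± 0.202 (limma adjusted p = 0.0385) that was lost in 7 of 8 fits that each left out 1 array. Cyp2f2, a periportal cytochrome P450, changed by 0.69 ± 0.19 and did not pass (limma adjusted p = 0.119). Of 18 general Wnt target genes none passed at an adjusted p of 0.05 (0 by limma, 3 at an unadjusted p under 0.05), with a median of -0.10 and 12 below 0.

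No member of the lists for fatty acid oxidation, ketogenesis and glucose metabolism passed. Of 19 genes of mitochondrial fatty acid oxidation none passed by limma (0, and 6 at an unadjusted p under 0.05), while 17 were below 0 with a median of -0.36. Hadh, the third enzyme of the spiral, averaged 1.39 ± 0.30 in KO and 2.04 ± 0.14 in WT and changed by -0.64 ± 0.158 (limma adjusted p = 0.0882), with -0.36 in the liver channel and 0.28 in the reference channel. Cpt1a, the gatekeeper of fatty acid entry into mitochondria, read 2.55, 2.32, 2.67 and 2.45 in KO livers, against 2.71, 3.03, 3.10 and 3.45 in WT livers. The ranges did not overlap, and the change was -0.57 ± 0.159 (limma adjusted p = 0.12). Etfa, which hands electrons from the oxidation steps to the respiratory chain, changed by -0.36 ± 0.0992 (limma adjusted p = 0.115), and Acadm, the medium-chain dehydrogenase, by -0.20 ± 0.168.

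Of 16 genes of peroxisomal and omega oxidation 15 were below 0, with a median of -0.37, and again none passed (0, and 5 at an unadjusted p under 0.05). Cyp4a14, which starts omega oxidation, averaged 7.08 ± 0.62 in KO and 8.22 ± 0.27 in WT and changed by -1.14 ± 0.283 (limma adjusted p = 0.0921). Its near copy Cyp4a10 changed by -1.40 ± 0.426 (limma adjusted p = 0.153). KO 2 and KO 3 were the lowest livers for both. Without KO 1, KO 4 and WT 1 both passed, Cyp4a14 at -1.62 (limma adjusted p = 0.0357) and Cyp4a10 at -2.05 (limma adjusted p = 0.0248), and the list median was -0.62. Leaving out KO 1 and KO 4 keeps the lowest KO livers of both genes, which lowers the KO mean. These arrays were set apart by values in these same data, so both passes add no support. Of 7 ketogenesis genes 6 were below 0, with a median of -0.23, and none passed (0, and 2 at an unadjusted p under 0.05).

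Of 14 gluconeogenesis genes listed 1 was not analysed here, and the 13 tested had a median of -0.01 with 7 below 0, the 12 glycogen genes a median of -0.05 with 8 below 0 and the 20 glycolysis genes a median of -0.11 with 14 below 0, and none of their members passed (3, 2 and 2 had an unadjusted p under 0.05). G6pc, the last enzyme of glucose release, read 5.43, 5.31, 5.00 and 5.56 in KO livers, against 5.41, 5.67, 5.85 and 5.81 in WT livers. The ranges overlapped, and the change was -0.36 ± 0.152 (limma adjusted p = 0.342). Gys2, the liver glycogen synthase, changed by -0.28 ± 0.158 with WT 1 missing, and Pygl, the liver glycogen phosphorylase, by -0.02 ± 0.193. Gcgr, the glucagon receptor, averaged 6.18 ± 0.22 in KO and 6.81 ± 0.12 in WT and changed by -0.63 ± 0.133, close to the threshold (limma adjusted p = 0.0561). Its liver channel changed by -0.33 and its reference channel by 0.30.

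No member of the lists for fatty acid, cholesterol and triglyceride synthesis passed, with 1 of fatty acid, 1 of cholesterol and 2 of triglyceride synthesis at an unadjusted p under 0.05. Fatty acid synthesis genes, 15 in number, had a median of -0.04 and cholesterol synthesis genes, 23 in number, a median of 0.00. Fasn, fatty acid synthase, changed by 0.10 ± 0.457 with a wide spread in both groups, 0.87 in KO and 0.72 in WT (SD, n = 4 each). Mlxipl, the glucose-sensing factor ChREBP, averaged 3.22 ± 0.56 in KO and 4.26 ± 0.42 in WT, but its change of -1.04 ± 0.292 did not pass (limma adjusted p = 0.126), and -0.50 of it lay in the liver channel. Hsd17b7, a late enzyme of cholesterol synthesis, changed by -0.84 ± 0.187 (limma adjusted p = 0.0644). Of 19 genes for triglyceride synthesis and lipid droplets 14 were below 0, with a median of -0.30, and none passed; Plin2, the droplet coat protein, changed by -0.78 ± 0.277 with KO 2 missing (limma adjusted p = 0.25).

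Bile acid genes had 2 falls among 19 tested, Slco1b2 and Hsd3b7, with a median of -0.32 and 15 below 0. Nitrogen genes had 2 among 14, Rhbg and Aqp9, with a median of -0.17. Over all genes tested 0.338% fell. Slco1b2 and Rhbg are also among the pericentral falls above, so these lists are not separate results. Enzymes of urea synthesis did not pass, with Cps1, its first enzyme, at 9.78 ± 0.14 in KO and 10.10 ± 0.16 in WT (SD, n = 4 each), a change of -0.31 ± 0.121 (limma adjusted p = 0.285) with 0.01 in the liver channel, and Ass1, argininosuccinate synthase, at 0.14 ± 0.146 with WT 1 missing. Of 18 methionine and one-carbon genes 16 were below 0, with a median of -0.19. Genes of the citric acid cycle (23 tested, median 0.00) and of the respiratory chain (24 tested, median 0.02) had changes centred on 0, and 0 of either list had an unadjusted p under 0.05.

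**Figure D4:**
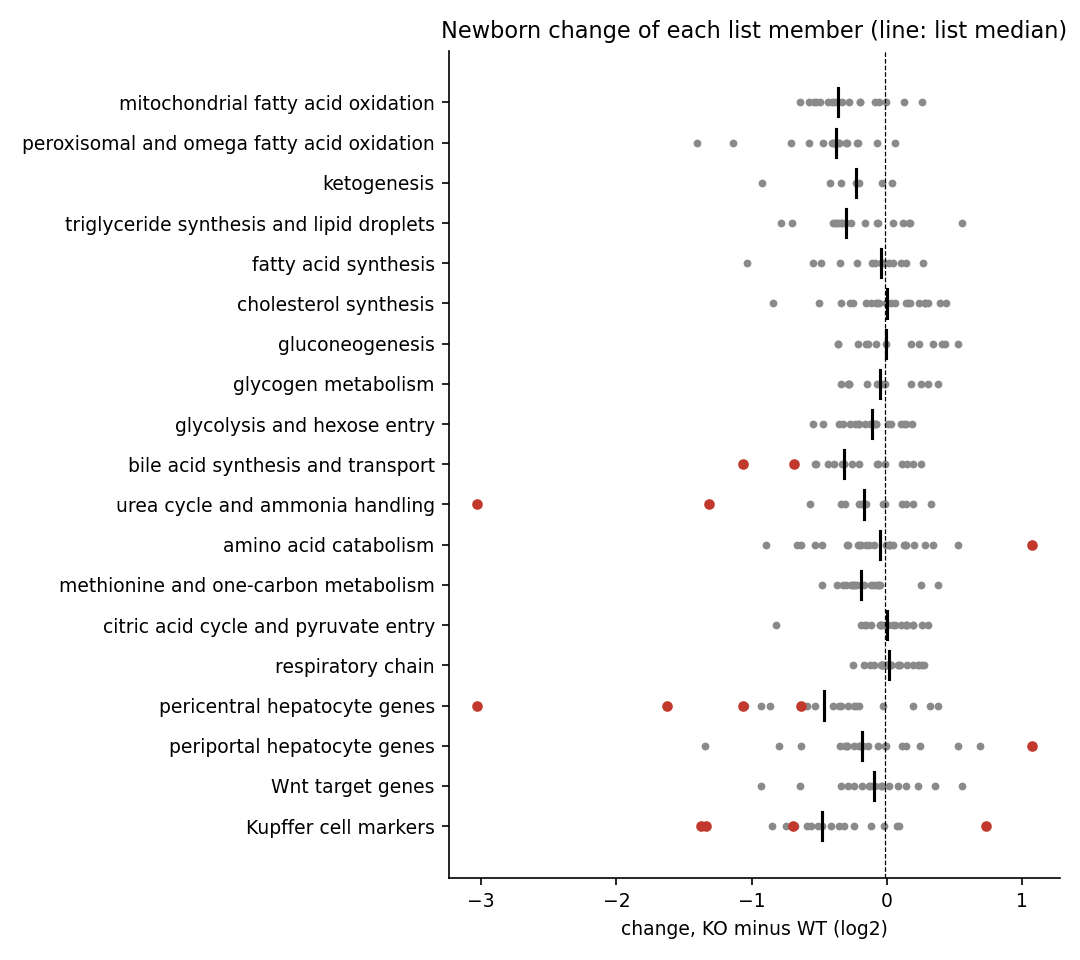
Change (KO minus WT, log2) of every tested member of 19 gene lists, 1 point per gene; red points passed limma at an adjusted p of 0.05, black lines are list medians and the dashed line is the median of all genes tested, -0.01. Red points occur in the bile acid, urea and ammonia, amino acid, pericentral, periportal and Kupffer cell lists, and both oxidation lists have medians left of the dashed line and no red point.

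The largest rise was that of a bright olfactory receptor gene named Olfr176 in the files, named here after its values were seen. It read 5.46, 5.47, 5.68 and 6.05 in KO livers, against 1.97, 2.55, 2.98 and 3.56 in WT livers, and the groups did not overlap. The change was 2.90 ± 0.301 (limma adjusted p = 0.0036) and passed with each array left out. Olfactory receptor genes are known for their role in the nose, and many are near copies of each other.

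Stc1, the hormone stanniocalcin and a member of the hypoxia list, had the next largest rise, though it is not among the bright genes. It read 4.42, 4.22, 4.30 and 4.55 in KO livers, against 1.36, 1.28, 2.03 and 2.28 in WT livers. The KO values were tight and lay almost 2 units above the highest WT value. The change was 2.63 ± 0.222 (limma adjusted p = 0.00185) and passed with each array left out, and the liver channel alone gave 2.37. The other 19 hypoxia genes tested did not pass, and the list median was 0.01.

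Il1r2, the decoy receptor that soaks up interleukin-1, read 4.43, 4.88, 5.11 and 4.75 in KO livers, against 3.08, 3.66, 2.99 and 2.33 in WT livers. All KO values were higher, and the change was 1.78 ± 0.259 (limma adjusted p = 0.0139), with a second probe at 1.65. The call was lost without KO 3, KO 4 or WT 3, and with the deposited ratio the change was 0.63 (limma adjusted p = 0.415). Orm1, an acute phase plasma protein, averaged 2.32 ± 0.41 in KO and 0.71 ± 0.57 in WT and rose by 1.61 ± 0.292 (limma adjusted p = 0.036), a call lost in 6 of 8 fits that each left out 1 array. Orm1 is not among the bright genes either. It was the only one of 22 acute phase genes that passed in this fit. Saa1 changed by 1.07 ± 0.401 (limma adjusted p = 0.27) and Lcn2 by 0.82 ± 0.225 (limma adjusted p = 0.115), and 11 of the 22 were above 0.

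Smaller rises among bright genes included Ifitm2, an interferon-induced membrane protein, at 0.67, 0.52, 0.68 and 0.74 in KO livers, against 0.09, -0.02, 0.07 and -0.03 in WT livers. Both groups were tight, and the change was 0.62 ± 0.0973 (limma adjusted p = 0.0176). Cers5, a ceramide synthase, rose by 0.76 ± 0.153 (limma adjusted p = 0.048), Sqor, which oxidises sulfide in mitochondria, by 0.73 ± 0.142 (limma adjusted p = 0.044), and Cytip, a leukocyte adhesion regulator, by 0.53 ± 0.109 (limma adjusted p = 0.0494). Other probes changed by 0.12 and 1.09 for Cytip and by 0.69 for Ifitm2. Atp7b, the copper exporter of hepatocytes, rose by 0.64 ± 0.112 (limma adjusted p = 0.0303) and Osbpl10, a lipid-binding protein, by 0.81 ± 0.15 (limma adjusted p = 0.0362; second probe 0.42). In both of these genes the reference channel was also higher on KO arrays, by 1.05 and 0.61. All 6 calls were lost in 6 or 7 of 8 fits that each left out 1 array.

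Of the other dimmer rises, Mroh4 at 2.01 ± 0.347 (limma adjusted p = 0.0298) and the olfactory receptor gene Olfr1434 at 1.80 ± 0.23 (limma adjusted p = 0.00904) were well above background on every array. The Olfr1434 call held with each array left out, though not without KO 1, KO 4 and WT 1 together (limma adjusted p = 0.0512), and that of Mroh4 was lost in 5 of 8 such fits. Of 21 genes of the amino acid and unfolded protein stress responses 15 were above 0; the list median was 0.22 and no member passed. Psat1, an enzyme of serine synthesis, came nearest at 0.81 ± 0.173 (limma adjusted p = 0.0564), and without KO 1, KO 4 and WT 1 it passed at 1.12 (limma adjusted p = 0.0267). Those arrays were set apart by their values in these same data, so that pass adds no support.

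The newborn change was then set against the change in fasted adults, as a test of the difference of these changes in a fit of 16 arrays. Age, mode of deletion and feeding all differ between the sets, and the Tcf7l2 probe did not fall in the fasted KO adults (0.35, limma adjusted p = 0.565), so adult directions rest on the labels. Slide layout differs as well, since each fasted slide held KO and control arrays and each newborn slide a single genotype. The differences below therefore cannot be told apart from an effect of the newborn slides. Of 18268 genes tested 280 differed (1.53%), and of 8494 bright genes 0.565% did. Of the 48 bright newborn calls 14 differed, 10 of 35 falls and 4 of 13 rises. These 48 were picked for their newborn change, so their share is raised by that choice. The adult change itself passed for 0 of the 35 falls and 0 of the 13 rises.

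Rhbg fell in both. In adults it changed by -2.80 (limma adjusted p = 0.000168), and the difference from the newborn change was -0.22 (limma adjusted p = 0.914). Glul, Oat, Lhpp, Lgr5 and Aldh3a2 fell in adults without a passing change in newborns. They were named for the size of this difference or as list members, so adult falls as a whole were not assessed. Glul changed by -2.94 in fasted adults and by -0.21 in newborns, a difference of 2.73 (limma adjusted p = 0.0106). For Oat the difference was 3.83 (limma adjusted p = 5.62e-07), for Lhpp, a phosphatase gene, 4.04 (limma adjusted p = 0.000158), for Lgr5 2.80 (limma adjusted p = 0.0128) and for Aldh3a2, a fatty aldehyde dehydrogenase, 2.66 (limma adjusted p = 0.000557). Each of these 5 genes was well above background on all 8 newborn arrays, with changes from -0.59 to -0.03 that did not pass.

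In the other direction, the newborn falls of Slc17a2, Aqp9, Spic, Fcna and Gulo differed from the fasted adult changes, which were -0.10, -0.07, 0.52, 0.19 and 0.18. The differences were -1.32 for Slc17a2 (limma adjusted p = 0.00164), -1.24 for Aqp9 (limma adjusted p = 0.00443), -1.72 for Spic (limma adjusted p = 0.0442), -1.56 for Fcna (limma adjusted p = 0.0219) and -0.81 for Gulo (limma adjusted p = 0.0199). With the deposited ratios the differences of Aqp9, Spic, Fcna and Gulo did not pass. Stc1 differed by 2.89 (limma adjusted p = 9.4e-05) and Il1r2 by 1.53 (limma adjusted p = 0.0488). The Il1r2 difference was not examined with the deposited ratios. Cyp2b9, a drug-induced cytochrome P450, rose by 4.18 in fasted KO adults and changed by -0.52 in newborns, a difference of -4.71 (limma adjusted p = 0.000269). The Spic difference was lost when most single arrays were left out. For Marco, Nceh1 and Cyp2c37 the difference did not pass (limma adjusted p = 0.118, 0.57 and 0.138).

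**Figure D5:**
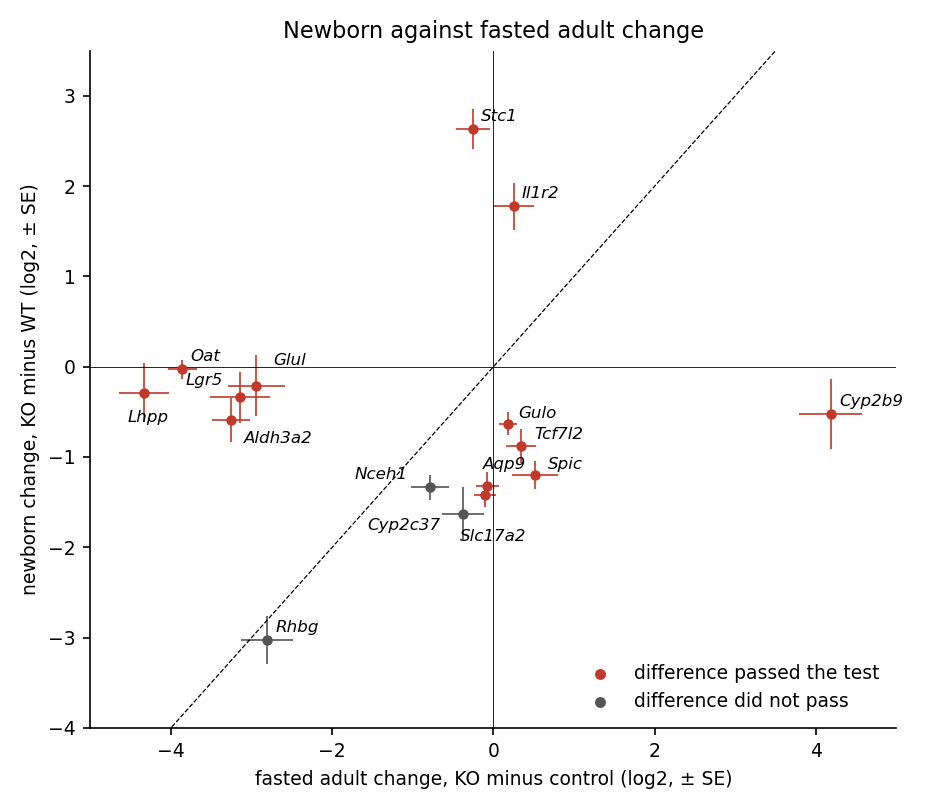
Newborn change (KO minus WT) against fasted adult change (KO minus control), both log2 with SE bars, for 16 genes; red points are genes whose difference between the changes passed limma, grey points those whose difference did not, and the dashed line marks equal changes. Rhbg lies next to the dashed line, Glul, Oat, Lhpp, Lgr5 and Aldh3a2 lie far to the left near the horizontal zero line, and Slc17a2, Aqp9, Spic, Stc1 and Il1r2 lie near the vertical zero line.

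Promoters of the bright falls were searched for the core of the TCF site, CTTTGAT or CTTTGAA on either strand, in the 250 bases before the start of transcription in RefSeq (GRCm38.p6). Of 33 bright falls with a symbol 27 had a promoter in the table, and 4 of them held a match (14.8%), namely Slc17a2, Agmat, Treml4 and Il15ra, the last 2 named only for this count. Of 7 bright rises with a promoter 1 held a match (14.3%), and of 6425 bright genes tested 407 did (6.33%), so the shares of falls and rises both rest on few genes and their difference from the bright genes was not tested. Promoters of Rhbg and Stc1 were not analysed here. The window of Slc17a2, shown because it is the one promoter with a match among the falls that passed with each array left out, is at chr13:23806743-23806992 on the plus strand. The capitals mark the match, CTTTGAA on the opposite strand, which begins 150 bases before the start.
Slc17a2 promoter: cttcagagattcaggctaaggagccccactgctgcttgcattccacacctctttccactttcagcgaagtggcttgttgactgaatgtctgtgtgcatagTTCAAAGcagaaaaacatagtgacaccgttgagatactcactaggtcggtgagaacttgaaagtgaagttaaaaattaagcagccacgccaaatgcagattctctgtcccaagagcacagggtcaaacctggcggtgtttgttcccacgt
A match describes these letters only and is not shown to be bound.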

How the data were processed

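Liver RNA of 22 mice was hybridised on 2-colour Agilent arrays, 1 array per mouse without dye swaps. The intensity values deposited by the authors are median spot and local background brightness per channel; per the file headers they come from Feature Extraction 10.5.1.1 with probes placed on mm9, while the submitters' processing notes name version 8.5.1.1. The log10 ratio that the authors deposited, reference over liver, was turned round, put on the log2 scale and used as an alternative.

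From the intensities, local backgrounds marked as outliers were replaced by the array's median, background was corrected with normexp (offset 50), arrays were loess-normalized with control spots at weight 0, outlier spots were set missing and spots of a probe were averaged. Each gene was read by its brightest probe. Genes whose liver channel was well above background on 4 or more of the 8 newborn arrays were tested with limma 3.58.1 (R 4.3.3; lmFit and eBayes, Benjamini-Hochberg, 6 residual degrees of freedom). Of these, 359 had a missing array. Channels were fitted after loess and Aquantile. The script was tested on simulated data. The number of arrays limits the precision, and p-values measure the spread between these samples.

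Named genes were Tcf7l2, the largest bright and dim calls, the called and first-listed members of 42 gene lists, and the largest differences from fasted adults. Members and lists were chosen with earlier results of these data known. Of 766 distinct listed genes, 11 matched no probe name and further ones did not pass the filter; these were not analysed here, and some genes are not reported here. The labels name no pairing of KO with WT mice by the numbers 1 to 4, which in newborns are also the positions on the slide. Deviations of same-numbered arrays correlated at 0.50, 0.36, 0.39 and -0.24, values that do not settle whether the numbers pair arrays. Alternatives covered the ratio, background, normalization, filter, probe rule, array weights, variance trend, all arrays in 1 fit, a replicate block and arrays left out. Genomic annotation of mm9 was not used; promoter sequences are from RefSeq.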

Additional observations from a re-analysis of the deposited data

Results flagged for a closer look

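Within each genotype, the array farthest from the others was compared with the spread of its group by Dixon's ratio, at its critical value for 4 samples. Of 172 groups tested, 9 had such an array, where chance gives about 1 in 20. WT 1 was low for Cyp7a1 (7.183), Lgr5 (0.6906) and Alb (4.522), and it was the distant array for Kdr (3.887) and Nr5a2 (3.551). WT 4 was distant for Plin2 (2.473), and WT 2 for Mat1a (7.171) and Hnf4a (5.956). KO 1 was distant for Hnf4a (5.255). These are log2 ratios, and none of these genes passed in the newborn comparison.

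The newborn change differed from the fasted adult change, by the limma test of the difference, for 19 named genes. Newborn minus adult, the difference was -1.221 for Tcf7l2, -1.244 for Aqp9, -1.322 for Slc17a2, -0.8139 for Gulo and -0.7062 for Agmat. Among macrophage genes it was -1.56 for Fcna, -1.874 for Adamdec1 and -1.72 for Spic. It was 2.888 for Stc1, 1.525 for Il1r2, 1.59 for Orm1, 2.048 for Mroh4 and 2.081 for Olfr1434. Of the genes that changed in adults, the difference was 2.731 for Glul, 3.829 for Oat, 4.044 for Lhpp, 2.804 for Lgr5, 2.664 for Aldh3a2 and -4.705 for Cyp2b9.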

How the results depend on the processing

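The counts depended strongly on the processing. Each of the 48 bright genes kept its sign wherever an alternative gave it a value, except in the liver channel alone, where 46 did. The filter on both channels gave values for 46. Fits on the same ratios, such as those with arrays left out, could hardly turn a sign, as the ranges of these genes did not overlap. Of the 48, 26 still passed with the deposited ratio and 10 with median centring. Against 250 calls, of which 48 bright, the deposited log10 ratio gave 440 (bright 73), median centring 104 (18), loess with scaling between arrays 586 (260), the liver channel alone 1525 (172), array weights 833 (218), all 22 arrays in 1 fit 461 (122), the filter on both channels 165, that on all 8 arrays 48 (12), and leaving out WT 1, KO 1 and KO 4 together 155. Higher and lower calls split 192 to 58 as reported, 261 to 179 with the deposited ratio, 87 to 17 with median centring, 265 to 321 with scaling and 1238 to 287 in the liver channel alone; bright calls split 13 to 35, 4 to 69, 12 to 6, 25 to 235 and 104 to 68. With outlier backgrounds kept there were 0 calls (bright 0; 557 at an unadjusted p under 0.05); the spread of ratios (SD) was then 1.001 on KO 1 and 1.089 on WT 3, against 1.427 and 1.46 as reported. Leaving out 1 array gave 65 to 427 calls, bright 9 to 98. With a replicate block there were 350 calls (bright 86). The difference from fasted adults, 280 genes as reported, gave 159 with the deposited ratio, 5 with outlier backgrounds kept, 130 with median centring, 118 with the filter on all arrays, 239 with the replicate block and 138 to 332 with 1 array left out. The other causes were not tested. Of list medians 49 moved by more than the replicate spread and 917 did not. The rises lay mostly in dim probes. With the filter on all 8 arrays the calls split 32 higher to 16 lower. The part of signal over background in the rises was not tested.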

Other observations

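Further gene lists held few or no calls. Among 27 conjugation enzymes, 22 were below 0 with a median of -0.23, and none passed (0 by limma, and 6 at an unadjusted p under 0.05). Of 24 cytochrome P450 drug and retinoid enzymes 1 fell, Cyp2c37, with a list median of -0.13. Of 29 coagulation and complement genes 23 were below 0 with a median of -0.19, and F9 alone passed in this fit. Growth hormone and insulin signalling genes, 22 in number, had a median of -0.16 and no call; Socs2, a feedback inhibitor of growth hormone signalling, changed by -0.86 ± 0.22 with separate ranges (limma adjusted p = 0.101). Hepatocyte transcription factors had 18 of 23 below 0 with a median of -0.10, which was 0.01 with median centring.

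Metallothionein and immediate early genes had 15 of 22 above 0 with a median of 0.19, with Mt1 at 0.95 ± 0.421 and Mt2 at 1.15 ± 0.603, wide spreads that did not pass. The same list had a median of 0.69 in fasted adults. Of 10 megakaryocyte and platelet markers 9 were above 0, with a median of 0.14. Cell cycle genes had a median of 0.00 (24 tested) and fetal liver genes one of -0.07 (20 tested), with Afp, the fetal plasma protein, at -0.40 ± 0.122 (limma adjusted p = 0.151) and -0.03 in the liver channel. None of these 4 lists held a gene that passed. Cholesterol synthesis genes had a median of 0.00 in newborns, against -0.43 in fasted adults.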
